A study of Mus musculus with 12 samples.

Results

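The genes described here, 10 in all, belong to bone morphogenetic protein (BMP) and activin signalling, in oviduct and uterus of mice in preimplantation pregnancy. The members were taken by name and are the ligand genes Bmp2, Bmp4, Bmp7, Inhba and Inhbb, the receptor genes Bmpr1a and Bmpr2, and the genes of the secreted proteins Fst, Fstl1 and Grem1. Each had 1 probe set with that symbol alone, so 10 of 19938 measured genes were described, and all 10 were tested. The 12 Affymetrix mouse gene arrays formed 4 groups of 3 biological replicates, which were E2 oviduct, oil oviduct, E2 uterus and oil uterus. E2 mice received estradiol (E2) under the skin daily at 10 µg/kg in 100 µl sesame oil from day 0.5 to day 2.5 of pregnancy, oil mice received the oil without E2 (0 µg/kg), and tissue was taken on day 3.5. All mice were thus pregnant, organs were flushed of embryos, and no strain or age was given in the labels. All levels are log2 RMA intensities and all changes are differences of these, so 1 unit is a doubling.

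BMPs and activins are dimeric ligands of the transforming growth factor beta family. They bind paired type 1 and type 2 serine/threonine kinase receptors, which activate SMAD transcription factors, with SMAD1, SMAD5 and SMAD9 acting for BMPs and SMAD2 and SMAD3 for activins. Inhba and Inhbb encode the beta subunits that form activins as homodimers and inhibins when joined to the alpha subunit from Inha. Secreted antagonists set how much ligand reaches its receptors: follistatin (Fst) traps activins tightly and some BMPs more weakly, and gremlin 1 (Grem1) binds BMP2, BMP4 and BMP7. In mouse uterus, Bmp2 is required for the decidual change of the stroma, and Bmp7, Bmpr1a, Bmpr2 and Fst are needed for normal implantation or early pregnancy.

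Array medians of intensity lay between 89.5 and 92.9, and the correlation across genes between arrays of the same group was 0.984 to 0.996 (Pearson r). The tissue labels matched the markers. All 8 ciliated cell genes were higher in oviduct and all 4 Hox genes of uterine position (Hoxa10, Hoxa11, Hoxd10 and Hoxd11) were lower in oviduct, in E2 and in oil mice alike. Both arrays of oil replicate 3 stood apart, with 302 genes in oviduct and 177 in uterus over 1 unit from the mean of their group's other arrays, against 8 to 62 genes on the other 10 arrays. The summed level of 9 measured ovary markers was 12.31 on oil oviduct replicate 3, against 8.95 to 9.32 on the other oil oviduct arrays and 9.05 to 9.18 on E2 oviduct arrays. Of these markers, Akr1c18 (11.51), Cyp11a1 (9.74), Star (9.44) and Hsd3b1 (7.57) stood high on that array. Inha (7.36), Amh (5.25), Fshr (4.98), Foxl2 (6.65) and Hsd17b7 (6.26) lay within or near the levels of the other oil oviduct arrays. The ovary makes activins, inhibins and follistatin. E2 effects of the members, and calls between tissues that use these arrays, are therefore also given without oil replicate 3 in both tissues. Detection calls were not used here. The Y-linked gene Sry, which female tissue lacks, reached 7.50, and that level was used as a cautious mark below which the size of a change is uncertain. It rests on 1 probe set: the other measured Y-linked genes reached 5.36 at most, and every member value lay above that, with the lowest at 5.51 for Grem1. By this mark Bmp2, Inhba and Grem1 lay below it on average in all 4 groups, Bmp7 and Fst in both oviduct groups, Fst also in E2 uterus, and Inhbb in all groups but E2 uterus. Bmp4, Bmpr1a, Bmpr2 and Fstl1 lay above it in all groups.

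**Figure D1:**
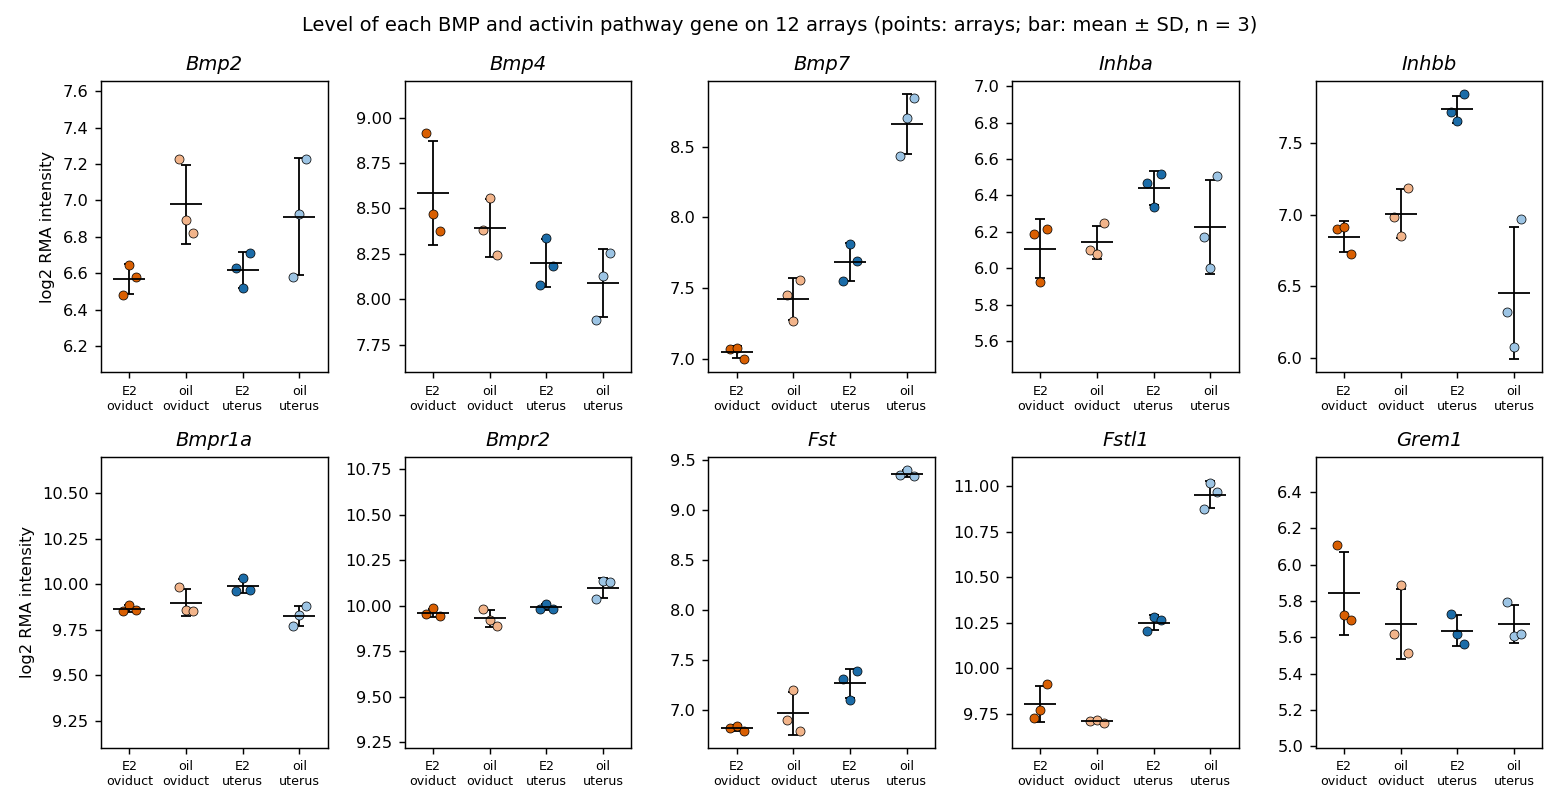
Log2 RMA intensity (vertical axis, a scale for each gene) of the 10 genes on each of 12 arrays, with points for arrays and bars for the mean ± SD of 3 arrays in E2 oviduct, oil oviduct, E2 uterus and oil uterus. Fst stood at 9.34 to 9.40 in oil uterus and at 7.38 or below on the other 9 arrays, and Inhbb was highest on the 3 E2 uterus arrays.

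E2 against oil in the uterus asked how excess estrogen alters these signals in the organ that receives the embryo. Follistatin lost most, with Fst 4.29-fold lower in E2 uterus. The activin subunit gene Inhbb was 2.43-fold higher. Bmp7 was 1.97-fold lower and the follistatin-like gene Fstl1 1.63-fold lower. The other 6 genes, among them Bmp2, Bmp4 and both BMP receptor genes, did not pass the test. In all, 1 of 10 members rose and 3 fell at an adjusted p below 0.05, where 26.7% of all genes passed, 12.4% higher and 14.3% lower. The counts were 2 and 3 without oil replicate 3, where 5592 of all 19938 genes passed (2694 higher and 2898 lower). The E2 and oil uterus arrays did not overlap for 6 of 10 members, against 40.5% of all genes. The median difference over the 10 members was -0.07, and that over all genes was -0.0007.

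Inhbb encodes the beta B subunit of activin B and inhibin B. It measured 7.71, 7.66 and 7.84 in E2 uterus, against 6.32, 6.08 and 6.97 in oil uterus. Every E2 array lay above every oil array, and oil replicate 3 was the highest oil array, 0.77 above the mean of the other oil arrays. The difference was 1.28 (SE 0.18, 95% interval 0.88 to 1.68, adjusted p = 0.000305), and 1.54 without oil replicate 3. By size, this rise ranked 227 of the 2478 rises in uterus. Since the oil mean of 6.45 lay under 7.50, the exact fold is uncertain.

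Inhba encodes the beta A subunit of activin A and inhibin A. It measured 6.47, 6.34 and 6.52 in E2 uterus, against 6.17, 6.001 and 6.51 in oil uterus. The groups overlapped through oil replicate 3, which was close to the highest E2 array. The difference of 0.21 (95% interval -0.06 to 0.49) did not pass limma's test (adjusted p = 0.249). Without oil replicate 3 it was 0.36 and passed (adjusted p = 0.0246), at levels below 7.50 throughout.

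Promoter sequences from the RefSeq table (GRCm38.p6) matched 7 of the 10 members, and the 250 bases before the transcription start are shown for the pair of activin subunit genes and, as a gene that fell, for Fstl1. Capitals mark motifs searched on both strands, none overlapping in these windows, which are the core of the estrogen response element (GGTCA or TGACC), the GC box bound by SP1 (GGGCGG or CCGCCC) and the TATA box (TATAAA or TTTATA).
Inhbb, chr1:119422249-119422498, minus strand: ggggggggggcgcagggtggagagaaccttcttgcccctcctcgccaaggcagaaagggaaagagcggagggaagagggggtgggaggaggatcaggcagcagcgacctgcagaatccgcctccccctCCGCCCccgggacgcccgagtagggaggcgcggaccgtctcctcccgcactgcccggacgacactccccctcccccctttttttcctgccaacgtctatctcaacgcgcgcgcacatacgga
Inhba, chr13:16011601-16011850, plus strand: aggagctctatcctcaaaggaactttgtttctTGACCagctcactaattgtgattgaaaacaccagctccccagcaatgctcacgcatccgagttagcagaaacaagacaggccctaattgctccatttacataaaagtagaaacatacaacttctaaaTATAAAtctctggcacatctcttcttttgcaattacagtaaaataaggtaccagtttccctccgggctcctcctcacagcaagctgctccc
Fstl1, chr16:37776805-37777054, plus strand: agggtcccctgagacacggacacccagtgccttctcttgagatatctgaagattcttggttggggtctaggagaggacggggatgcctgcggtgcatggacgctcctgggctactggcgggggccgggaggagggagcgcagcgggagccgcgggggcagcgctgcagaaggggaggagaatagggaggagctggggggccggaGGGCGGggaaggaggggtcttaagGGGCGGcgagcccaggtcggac
The Inhbb and Fstl1 windows were both 68.0% G or C, with 21 and 16 CpG sites, while the Inhba window was 43.2% with 3 CpG sites. The estrogen core occurred in Inhba, starting 218 bases before the start site, and in 35.2% of the 32851 promoters of the table. A GC box stood in Inhbb at 122 bases and in Fstl1 at 46 and 22 bases, and in 32.7% of all promoters. The TATA box of Inhba lay at 91 bases, and 12.4% of promoters held that motif. The full palindromes, GGTCA and TGACC for the estrogen receptor and GNACA and TGTNC for the progesterone receptor, each pair with 3 free bases between, were found in 0 of the 7 member windows, and in 0.0639% and 0.387% of all promoters.

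Among the BMP ligands, Bmp7 changed. It measured 7.55, 7.81 and 7.69 in E2 uterus, against 8.43, 8.71 and 8.85 in oil uterus. The groups were separated by a wide gap and every array lay above 7.50. The difference was -0.98 (SE 0.11, 95% interval -1.22 to -0.73, adjusted p = 6.64e-05), and -0.89 without oil replicate 3. Bmp7 ranked 297 of the 2854 genes that fell.

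Bmp2 measured 6.63, 6.52 and 6.71 in E2 uterus, against 6.58, 6.93 and 7.23 in oil uterus. Oil replicate 1 lay among the E2 arrays and oil replicate 3 well above them. The difference of -0.29 (95% interval -0.62 to 0.03) did not pass limma's test (adjusted p = 0.186), but without oil uterus replicate 1 it was -0.46 and passed (adjusted p = 0.0293), while without oil replicate 3 it was -0.14. Bmp4, a ligand closely related to Bmp2, measured 8.08, 8.34 and 8.18 in E2 uterus, against 7.89, 8.13 and 8.26 in oil uterus. These ranges overlapped, and the difference was 0.11 (95% interval -0.21 to 0.43, adjusted p = 0.672 by limma). It was 0.19 without oil replicate 3, ran from 0.008 to 0.19 with each array left out, and passed with array weights (0.32, adjusted p = 0.0465). Those weights were 6.56 for E2 uterus replicate 2, against 0.64 and 0.53 for replicates 1 and 3. They were 2.09 for oil uterus replicate 1, against 0.75 and 0.40 for replicates 2 and 3. For Bmp4 the arrays of most weight were the highest E2 array and the lowest oil array.

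The receptor genes moved little. Bmpr1a, the type 1 receptor also called ALK3, measured 9.96, 10.03 and 9.97 in E2 uterus, against 9.77, 9.83 and 9.88 in oil uterus. All E2 arrays were higher, by a difference of 0.16 whose 95% interval reached from 0.03 to 0.30, and it missed the threshold (adjusted p = 0.0747 by limma). It was 0.19 without oil replicate 3 (adjusted p = 0.0573), and with dim genes left out of the test it passed (adjusted p = 0.0298). Bmpr2, the type 2 receptor of BMPs, measured 9.98, 10.01 and 9.98 in E2 uterus, against 10.03, 10.13 and 10.13 in oil uterus. Here all E2 arrays were lower, with a difference of -0.11 (95% interval -0.23 to 0.02, adjusted p = 0.212 by limma), and -0.09 without oil replicate 3.

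Fst, the activin trap, showed the widest change of the members. It measured 7.31, 7.10 and 7.38 in E2 uterus, against 9.35, 9.40 and 9.34 in oil uterus. The nearest arrays of the groups, 7.38 with E2 and 9.34 with oil, were far apart. The difference was -2.10 (SE 0.10, 95% interval -2.32 to -1.88, adjusted p = 1.61e-07), it ranked 25 of the 2854 falls, and it was -2.11 without oil replicate 3. Since the E2 mean of 7.26 lay under 7.50, the exact size is uncertain.

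Fstl1 encodes a secreted glycoprotein with a follistatin-like domain, made by mesenchymal cells and known to bind BMP4. It measured 10.21, 10.28 and 10.26 in E2 uterus, against 10.87, 11.02 and 10.97 in oil uterus. The groups did not overlap and the spread within each was small. The difference was -0.70 (SE 0.07, 95% interval -0.85 to -0.56, adjusted p = 1.88e-05), and -0.70 without oil replicate 3. Grem1 measured 5.73, 5.62 and 5.56 in E2 uterus, against 5.79, 5.61 and 5.62 in oil uterus. These ranges overlapped at levels below 7.50, with a difference of -0.04 (95% interval -0.31 to 0.23, adjusted p = 0.887 by limma), and -0.06 without oil replicate 3.

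Cell type markers moved in the same comparison. Of epithelial markers 9 of 10 were higher, with summed levels of 13.14 to 13.31 in E2 uterus and 12.03 to 12.25 in oil uterus. Of stromal markers 5 of 10 were lower (14.18 to 14.21 in E2 uterus, 14.31 to 14.36 in oil uterus), and of endothelial markers 6 of 6 (11.68 to 11.78 in E2 uterus, 12.29 to 12.52 in oil uterus). The stromal list held Hoxa10 and Hoxa11, also used above as genes of uterine position, and both were among its lower genes. Macrophage markers were higher for 4 of 6 genes (11.66 to 11.82 in E2 uterus, 10.87 to 11.12 in oil uterus), and smooth muscle markers for 2 of 8 (14.31 to 14.36 in E2 uterus, 13.85 to 14.31 in oil uterus). No deposited intensity was 0 for any gene, so marker levels above 0 do not show that a cell type was present. The part of these shifts in the changes of Inhbb, Bmp7, Fst and Fstl1 was not tested, and in whole organs fewer cells of a type and less RNA per cell cannot be told apart.

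**Figure D2:**
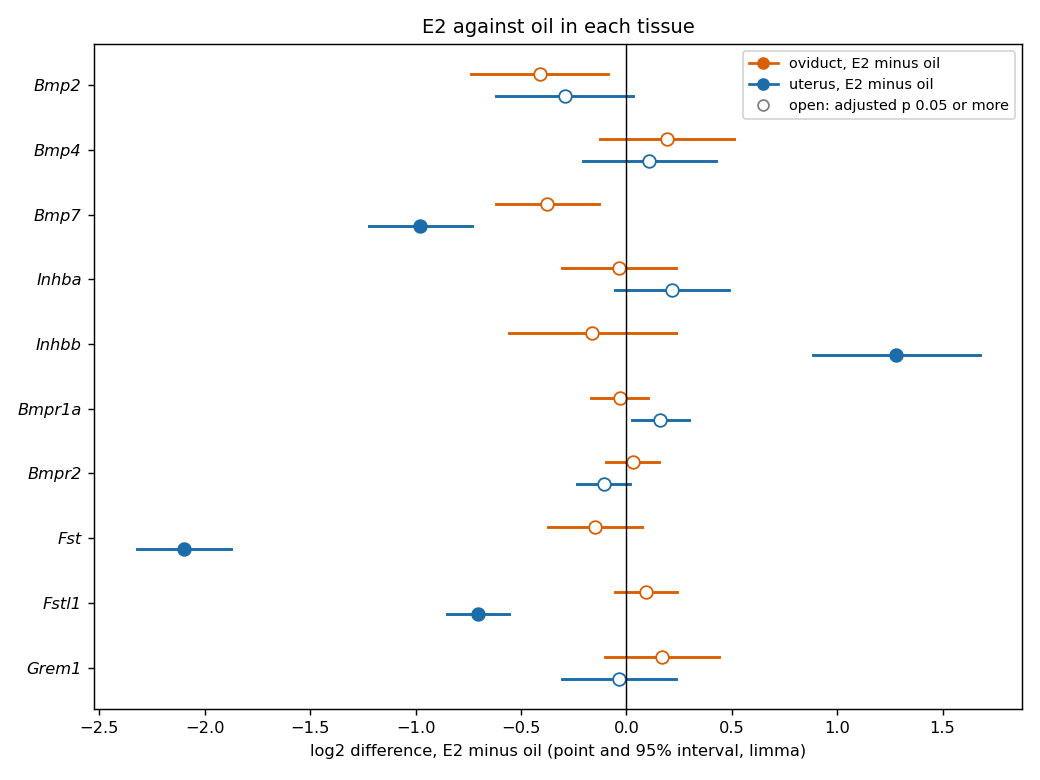
Log2 difference E2 minus oil (horizontal axis, point with 95% interval from limma) of the 10 genes in oviduct and in uterus, filled where the adjusted p was below 0.05. In uterus the points of Fst (-2.10), Bmp7 (-0.98), Fstl1 (-0.70) and Inhbb (1.28) are filled, and no oviduct point is.

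E2 against oil in the oviduct asked the same of the tissue that carries the embryo. Of the 10 genes 0 passed limma's test, where 0.291% of all genes passed, and 2 had an unadjusted p below 0.05, where 10.5% of all genes did. Differences ran from -0.41 for Bmp2 to 0.19 for Bmp4, with a median of -0.03 against -0.006 over all genes. The E2 and oil oviduct arrays did not overlap for 3 members (Bmp2, Bmp7 and Fstl1), against 17.4% of all genes.

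Bmp7 measured 7.07, 7.08 and 6.999 in E2 oviduct, against 7.45, 7.27 and 7.56 in oil oviduct. All E2 arrays were lower, by a difference of -0.37 (95% interval -0.62 to -0.13) that did not pass (adjusted p = 0.25 by limma). It was -0.31 without oil replicate 3. Bmp2 measured 6.48, 6.65 and 6.58 in E2 oviduct, against 7.23, 6.89 and 6.82 in oil oviduct. Its difference of -0.41 (95% interval -0.74 to -0.09) did not pass either (adjusted p = 0.347 by limma), and it was -0.49 without oil replicate 3.

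Fst, Inhbb and Fstl1, which changed in uterus, did not pass here. Fst measured 6.82, 6.84 and 6.78 in E2 oviduct, against 6.90, 7.20 and 6.79 in oil oviduct, and the oil range enclosed 2 of the E2 arrays. Its difference was -0.15 (95% interval -0.37 to 0.08), and -0.24 without oil replicate 3. Inhbb measured 6.90, 6.91 and 6.72 in E2 oviduct, against 6.99, 6.85 and 7.19 in oil oviduct. The highest of these was oil replicate 3, the array with ovary markers, and the difference of -0.16 (95% interval -0.56 to 0.24) was -0.07 without oil replicate 3. Fstl1 measured 9.72, 9.77 and 9.91 in E2 oviduct, against 9.71, 9.71 and 9.70 in oil oviduct, a difference of 0.10 (95% interval -0.05 to 0.24), and 0.09 without oil replicate 3.

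For the other 5 members the intervals bound what could have been missed. Bmp4 lay between 8.38 and 8.91 in E2 oviduct, against 8.24 to 8.56 in oil oviduct, with an interval from -0.12 to 0.51. Grem1 lay between 5.69 and 6.11 in E2 oviduct, against 5.51 to 5.89 in oil oviduct, with an interval from -0.10 to 0.44. Inhba lay between 5.92 and 6.21 in E2 oviduct, against 6.08 to 6.25 in oil oviduct, with an interval from -0.30 to 0.24. The narrowest intervals were those of the receptors, from -0.17 to 0.10 for Bmpr1a and from -0.09 to 0.16 for Bmpr2. Bmpr1a spanned 9.85 to 9.89 in E2 oviduct, against 9.85 to 9.98 in oil oviduct, and Bmpr2 9.94 to 9.99 in E2 oviduct, against 9.89 to 9.98 in oil oviduct. Without oil replicate 3 the differences were 0.12 for Bmp4, 0.09 for Grem1, 0.02 for Inhba, -0.06 for Bmpr1a and 0.01 for Bmpr2, against 0.19, 0.17, -0.03, -0.03 and 0.03 with it, so that of Inhba changed sign.

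Whether the E2 effect differed between the tissues was tested as the oviduct effect minus the uterine effect. In 4 of 10 members it did, 3 with a positive and 1 with a negative difference, where 11.5% of all genes passed (5.77% positive and 5.71% negative). For Fst the effect was -0.15 in oviduct and -2.10 in uterus, a difference of 1.95 (SE 0.14, adjusted p = 1.45e-05). For Inhbb it was -0.16 in oviduct and 1.28 in uterus, a difference of -1.44 (SE 0.26, adjusted p = 0.00386). For Fstl1 it was 0.10 in oviduct and -0.70 in uterus, a difference of 0.80 (SE 0.10, adjusted p = 0.000283). Bmp7 had the same sign in both, at -0.37 in oviduct and -0.98 in uterus, a difference of 0.60 (SE 0.16, adjusted p = 0.0296). This last call held only when oil uterus replicate 1, E2 uterus replicate 2 or oil oviduct replicate 3 was the array left out, and it ended for each of the other 9 arrays (0.51 to 0.63, adjusted p up to 0.0738). Without oil replicate 3 in both tissues the 4 differences were 1.88 for Fst, -1.61 for Inhbb, 0.79 for Fstl1 and 0.58 for Bmp7, and all passed. The remaining 6 members lay between -0.25 and 0.20 and did not pass. Fst, Inhbb and Bmp7 had both oviduct means below 7.50, so the sizes of their oviduct effects, and of these differences, are uncertain.

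Oviduct against uterus was compared at each treatment, with arrays shared with the comparisons above. Among E2 mice 0 members were higher in oviduct and 4 were lower, where 15.2% of all genes were higher and 18.9% lower (34.1% in all). Among oil mice 1 was higher and 4 were lower, where 17.3% of genes were higher and 21.5% lower (38.7% in all). Oviduct and uterus arrays did not overlap for 7 of 10 members in E2 mice, against 49.8% of all genes, and for 4 of 10 in oil mice, against 46.6%. Markers differed as well: endothelial markers were lower in oviduct for 4 of 6 genes in E2 mice and 6 of 6 in oil mice, and stromal markers for 7 of 10 in E2 mice and 8 of 10 in oil mice. The uterine position genes Hoxa10 and Hoxa11 were among the lower stromal markers at both treatments. Epithelial markers were higher in oviduct for 2 of 10 genes and lower for 3 in E2 mice, and higher for 9 of 10 in oil mice. Macrophage markers were lower in oviduct for 4 of 6 genes in E2 mice and 2 of 6 in oil mice, and smooth muscle markers for 5 of 8 in E2 mice and 0 of 8 in oil mice. Their part in the members' differences was not tested. Fst had a difference of -0.45 in E2 mice (SE 0.10, adjusted p = 0.005) and of -2.40 in oil mice (SE 0.10, adjusted p = 1.68e-08). Its order of means was 9.36 in oil uterus, 7.26 in E2 uterus, 6.96 in oil oviduct and 6.81 in E2 oviduct, and the ranges of neighbours overlapped except between oil and E2 uterus. Fstl1 was lower in oviduct, with a difference of -0.45 in E2 mice (SE 0.07, adjusted p = 0.000303) and -1.25 in oil mice (SE 0.07, adjusted p = 8.10e-08). Without oil replicate 3 the differences in oil mice were -2.33 for Fst, -1.23 for Fstl1 and -1.21 for Bmp7.

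Bmp7 was lower in oviduct too, with a difference of -0.63 in E2 mice (adjusted p = 0.000922) and -1.24 in oil mice (adjusted p = 4.20e-06, both SE 0.11 by limma). Its means fell into the order 8.66 in oil uterus, 7.68 in E2 uterus, 7.42 in oil oviduct and 7.05 in E2 oviduct, and of neighbouring groups only E2 uterus and oil oviduct overlapped. Inhbb changed sides. It was lower in oviduct among E2 mice, at -0.89 (SE 0.18, adjusted p = 0.0025), and 0.55 higher in oviduct among oil mice (SE 0.18, adjusted p = 0.0307). The call in oil mice ended without oil uterus replicate 1 (0.48) or 2 (0.36) or without oil oviduct replicate 1 (0.56) or 3 (0.46), and the difference was 0.72 without both oil replicate 3 arrays. Bmpr2 was lower in oviduct among oil mice by a difference of -0.17 (SE 0.06, adjusted p = 0.035), a call that ended at -0.13 without oil replicate 3 (adjusted p = 0.17). It also ended when a single array was left out for oil uterus replicates 2 and 3, E2 uterus replicate 2, oil oviduct replicates 2 and 3 and E2 oviduct replicate 3 (-0.17 to -0.15). In E2 mice Bmpr2 was at -0.03. Bmp4 and Inhba just missed the threshold in E2 mice, at 0.39 (adjusted p = 0.0591) and -0.33 (adjusted p = 0.0567). Without oil replicate 3 both passed. Leaving it out changes no array of that comparison and acts through the variance estimates and the adjustment over all genes.

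**Figure D3:**
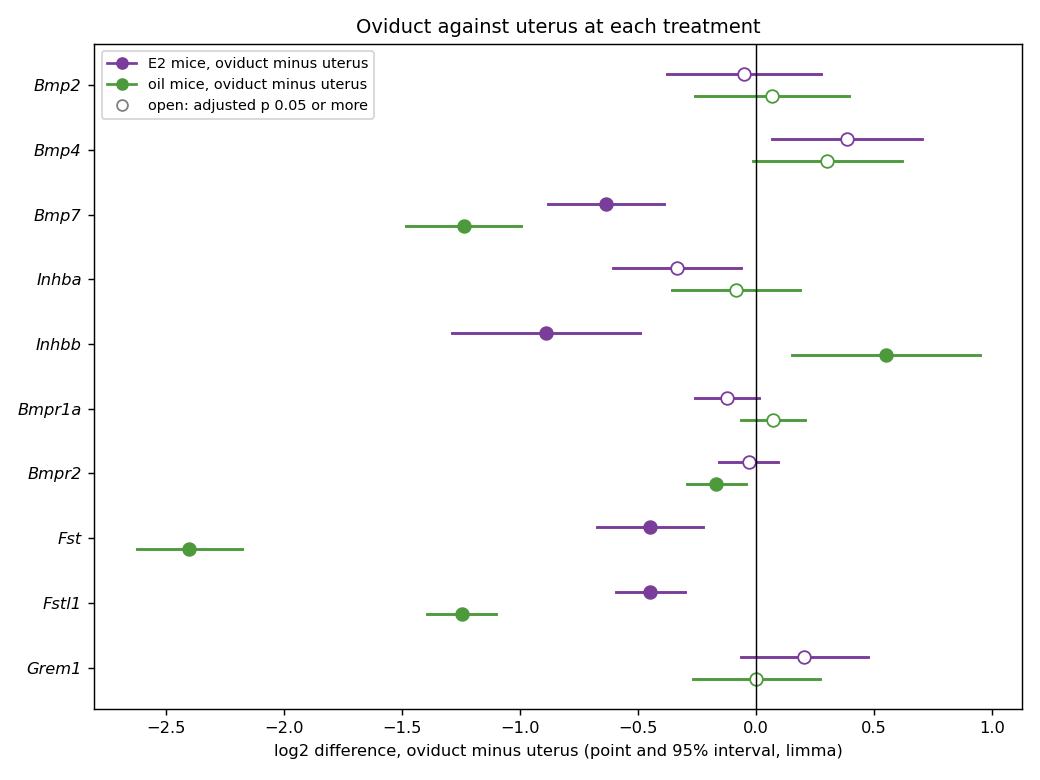
Log2 difference oviduct minus uterus (horizontal axis, point with 95% interval from limma) of the 10 genes in E2 mice and in oil mice, filled where the adjusted p was below 0.05. Fst lies at -0.45 in E2 mice and -2.40 in oil mice, and Inhbb at -0.89 in E2 mice and 0.55 in oil mice.

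The rest of the pathway was described by lists of other ligands, receptors, inhibitors, transducers and target genes. In E2 against oil uterus, 28 of 91 measured genes passed, where 26.7% of all genes did, and changes went both ways within each list. Of the genes named below, Bmp5, Gdf5, Bmp6, Bmpr1b and Msx2 had both uterine means below 7.50, and Acvr1b, Chrdl1, Bambi, Dlx6 and Wnt4 had the lower one below it, so the sizes of their changes are uncertain. In oil uterus Gdf5 averaged 5.28 and Bmpr1b 5.40, near the 5.36 that Y-linked genes other than Sry reached. Of other ligands 5 of 26 were higher and 2 lower (median 0.06). Gdf7, a BMP-type growth and differentiation factor, was at -1.33 (SE 0.10), Bmp5 at 0.90 (SE 0.13), the joint factor Gdf5 at 0.45 (SE 0.13) and Bmp6 at 0.36 (SE 0.08). The call of Gdf5 ended when E2 uterus replicate 1 (0.33) or 2 (0.43) or oil uterus replicate 1 (0.42) or 2 (0.43) was left out. The ligand counts were 4 higher and 1 lower without oil replicate 3.

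Of other receptors and co-receptors 4 of 17 were higher and 2 lower (median 0.03), with the same counts without oil replicate 3. The type 1 BMP receptor Bmpr1b rose by 1.13 (SE 0.15) and the type 1 activin receptor Acvr1b by 0.67 (SE 0.10). The endothelial co-receptor Eng was at -0.72 (SE 0.08), beside the falls of all 6 endothelial markers, and the BMP co-receptor Rgmb at -0.46 (SE 0.10). Bmpr1b averaged 8.90 in E2 oviduct, 8.88 in oil oviduct, 6.52 in E2 uterus and 5.40 in oil uterus, and was 2.37 higher in oviduct among E2 mice (SE 0.15) and 3.48 higher in oviduct among oil mice (SE 0.15), with both uterine means below 7.50.

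Of other inhibitors and extracellular modulators 2 of 20 were higher and 4 lower (median -0.01), and without oil replicate 3 there were 2 and 2. Chrdl1, a BMP antagonist related to chordin, rose by 1.29 (SE 0.18), and Nbl1, an antagonist of the gremlin family, by 0.67 (SE 0.07). Bambi, a decoy receptor without kinase activity, was at -0.77 (SE 0.10), and Fstl3, an activin binder like follistatin, at -0.52 (SE 0.11). Of transducers 2 of 13 were higher and 1 lower (median 0.07), or 3 and 1 without oil replicate 3. Pmepa1, a feedback inhibitor of activin-type SMAD signalling, rose by 0.67 (SE 0.17), Smad1 was at -0.29 (SE 0.07), and the SMAD corepressor Skil was at 0.22 (SE 0.08), a call lost in 12 of 23 alternative fits. Of target genes 4 of 15 were higher and 2 lower (median 0.03), or 6 and 2 without oil replicate 3. The homeobox genes Dlx5 (1.05, SE 0.19), Dlx6 (0.94, SE 0.13) and Msx2 (0.94, SE 0.17) rose, as did Wnt4 (0.57, SE 0.09). These were named by size, and the lowest difference of the list was -0.48. The Id genes of the list went both ways. Means in E2 and oil uterus were 7.16 and 7.36 for Id1 and 6.87 and 7.35 for Id3. They were 10.81 and 10.60 for Id2 and 8.56 and 8.28 for Id4.

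In the oviduct 0 of these 91 genes passed limma's test for E2 against oil, and 7 had an unadjusted p below 0.05, where 0.291% and 10.5% of all genes did. The widest differences of each list were those of Tgfb1 (0.38, SE 0.09) and Lefty2 (0.37, SE 0.14) among ligands and Acvr1c (0.30, SE 0.23) and Amhr2 (0.17, SE 0.13) among receptors. For inhibitors they were Chrdl1 (0.56, SE 0.18) and Tll1 (0.40, SE 0.16), for transducers Smad2 (-0.19, SE 0.09) and Smad3 (-0.14, SE 0.08), and for targets Dlx5 (-0.30, SE 0.19) and Id3 (0.21, SE 0.14). Lefty2 lay at 4.54 or below on every oviduct array, under the 5.36 reached by Y-linked genes other than Sry. Tgfb1, Acvr1c and Amhr2 had both oviduct means below 7.50, and Chrdl1, Tll1, Dlx5 and Id3 had the lower one below it. The sizes of these differences are thus uncertain. Tll1, a protease that releases BMPs from chordin, was the only gene of the lists to pass without oil replicate 3 (0.43, adjusted p = 0.0496 by limma). Chrdl1 passed without oil uterus replicate 3 alone (adjusted p = 0.0474 by limma). That array is not part of the oviduct comparison, so the difference stayed at 0.56. Only the variance estimates and the adjustment over all genes moved. Without oil replicate 3 in both tissues Chrdl1 was at 0.50 and did not pass (adjusted p = 0.0782 by limma). The E2 effect differed between the tissues for 14 of the 91 genes, where 11.5% of all genes passed. Among them were all 4 target genes named for uterus, with oviduct minus uterus at -1.34 for Dlx5, -0.82 for Dlx6, -0.93 for Msx2 and -0.51 for Wnt4 (adjusted p 0.00695 to 0.0259 by limma). The calls of Dlx5 and Dlx6 held in all 22 alternative fits. That of Msx2 (-0.97 to -0.80) ended without any one of E2 oviduct replicates 1, 2 and 3, E2 uterus replicates 1 and 2 or oil uterus replicates 1 and 2. That of Wnt4 (-0.52 to -0.47) ended without oil oviduct replicate 1, E2 uterus replicate 1 or 2, or oil uterus replicate 1 or 2. In oviduct, Dlx6 averaged 5.44 with E2 and 5.32 with oil, near the 5.36 that Y-linked genes other than Sry reached. Msx2 (5.98 and 5.97) and Wnt4 (7.32 and 7.27) also had both oviduct means below 7.50, and Dlx5 had its E2 mean (7.24) below it. The sizes of their oviduct effects are thus uncertain. The effects differed as well for Gdf7 (1.24), Bmp5 (-0.81), Bmpr1b (-1.11), Acvr1b (-0.68), Eng (0.74), Bambi (0.76) and Nbl1 (-0.57). Each of these passed in every alternative fit that held it. Bmp5 averaged 5.84 in E2 oviduct and 5.75 in oil oviduct, below 7.50. Rgmb (0.56) passed too, a call lost in 6 of 22 alternative fits. Chrdl1 (-0.73, adjusted p = 0.0971 by limma) and Pmepa1 (-0.63, adjusted p = 0.115 by limma) did not pass, nor did Gdf5, Bmp6, Fstl3, Smad1 and Skil.

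**Figure D4:**
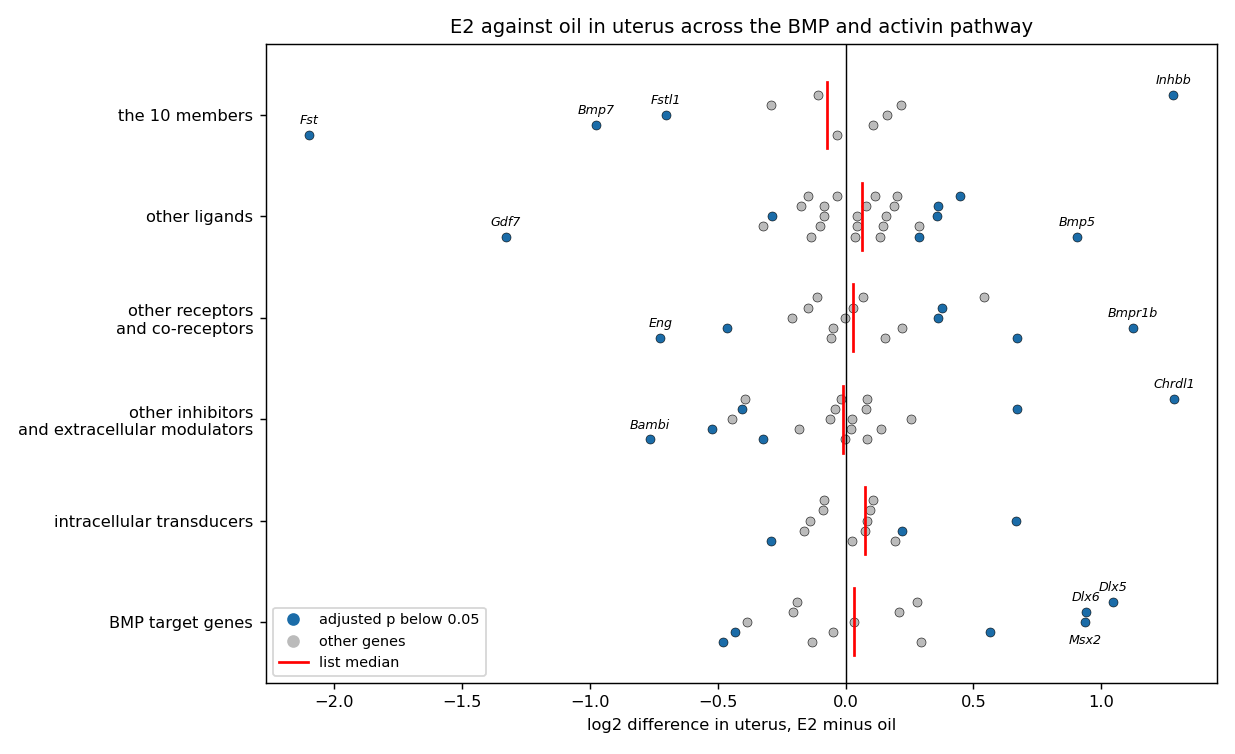
Log2 difference E2 minus oil in uterus (horizontal axis) of the 10 members and of 5 lists of other pathway genes, with blue points at an adjusted p below 0.05 and a red line at each list's median. Medians lie between -0.07 and 0.07 while single genes reach -2.10 (Fst) and 1.29 (Chrdl1).

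For the 4 members with a change or tissue difference of at least 1 unit past the test, the genes with the most alike pattern were sought. Likeness was the root mean square difference over the 12 arrays after each gene's own mean was taken off, where 0 is an identical pattern. Nearest to Fst, whose own spread on this measure was 1.04, were Ppfia2 (0.16), a synaptic scaffold gene, Vcan (0.18), the matrix proteoglycan versican, and Nt5dc2 (0.21). In E2 against oil uterus these were at -2.13, -2.04 and -2.15. Nearest to Inhbb (own spread 0.51) were the copper-carrying ferroxidase Cp (0.17), Ahcyl2 (0.19) and Slc35g1 (0.20), which were at 1.38, 1.57 and 1.33 in the same comparison.

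Fstl1 (own spread 0.50) was matched most closely by Grb10, an adaptor that restrains insulin receptor signalling (0.08), by the aldo-keto reductase Akr1b8 (0.09) and by Rasip1, an endothelial Ras-interacting protein (0.09). These were at -0.70, -0.83 and -0.71 in E2 against oil uterus. Bmp7 (own spread 0.61) was closest to Sertad4 (0.13), Rrp15, a factor of ribosomal RNA processing (0.14), and Gnl3, the nucleolar protein nucleostemin (0.14). In the uterine comparison these were at -1.17, -0.85 and -0.92.

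**Figure D5:**
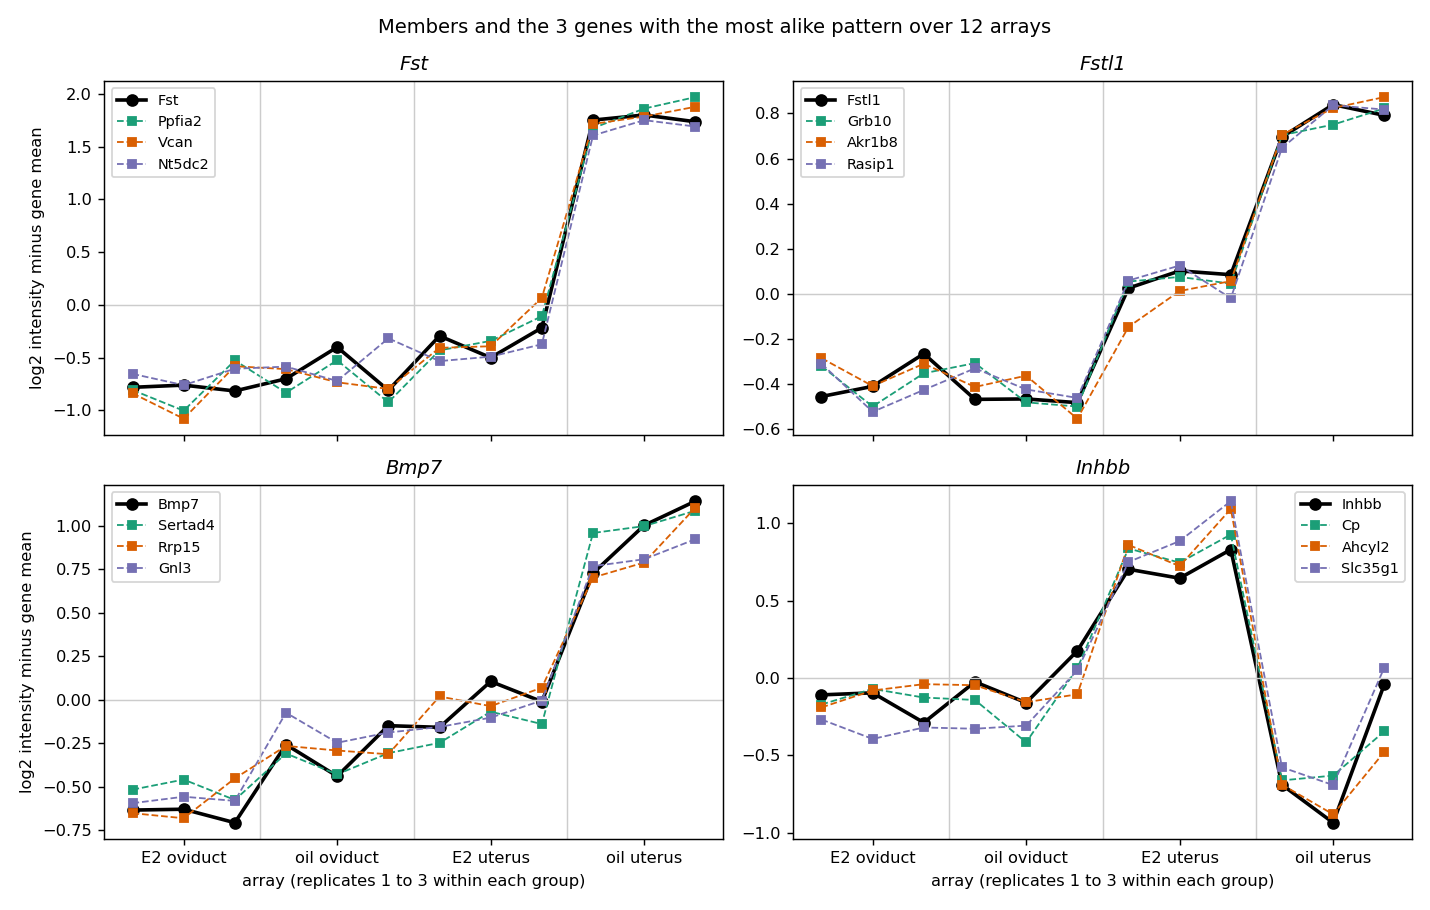
Log2 intensity minus each gene's mean (vertical axis) on 12 arrays ordered by group for Fst, Fstl1, Bmp7 and Inhbb (black) and the 3 genes of most alike pattern (dashed). Fst and its neighbours are high on the 3 oil uterus arrays only, while Inhbb and its neighbours are highest on the 3 E2 uterus arrays.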

How the data were processed

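Per the submitters' processing notes the values were made with RMA, of no version named in the sources used here. The deposited table held an intensity for each of 35556 probe sets and 12 arrays, on a linear scale (array maxima 9102 to 9950), and the log2 of these was used. Of the probe sets, 21789 had a single symbol in the platform annotation, 1621 had several and 12146 had none listed. Gene identifiers of 21698 matched the gene table of GRCm38.p6. The probe set with the highest mean stood for a gene, which gave 19938 genes with no intensity filter.

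A single limma model (version 3.58.1, run in R 4.3.3) held the means of all 4 groups, and moderated two-sided tests came from eBayes. P-values were adjusted by Benjamini and Hochberg across the whole gene table, and calls were made below 0.05. The fit was tested on simulated arrays. The number of arrays limits the precision. The members and lists were chosen with earlier results of these data known. Named pathway genes were up to 4 of each list past the test in uterus and up to 2 in oviduct by size, or 2 as values where 0 passed. Their differences between tissues, and Bmpr1b between tissues, were added after the values were seen. Alternatives were other fits, blocks, filters, scalings, weights and left-out arrays. Scanner files were not used here.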

Additional observations from a re-analysis of the deposited data

Results flagged for a closer look

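By limma's test of the difference (oviduct effect minus uterine effect), the E2 effect differed between oviduct and uterus in 4 of the 10 genes. Among all genes, 11.5% passed this test. The differences of the 4 genes were 1.95 for Fst, -1.44 for Inhbb, 0.80 for Fstl1 and 0.60 for Bmp7. Fst, Inhbb and Fstl1 passed in all 22 alternative fits, and Bmp7 in 12 of 22.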

How the results depend on the processing

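Of 1110 alternative values for the 50 member results, 1062 kept their side of the threshold, 23 lost a call and 25 gained a call. Sign changed in 23 of the 1062, all in 9 results that did not pass with or without the change (adjusted p 0.485 or higher), and 0 called values reversed. The uterine calls of Fst, Inhbb, Bmp7 and Fstl1 held in all 23 alternatives. For the named pathway genes, to which the alternatives were applied after seeing the data, 1077 of 1122 values kept their side of the threshold, 34 lost a call, 11 gained a call and 0 changed sign.

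Counts of genes past the test moved by over 1.5 times with array weights, to 8214 of E2 against oil in uterus (5332 without weights), 264 in oviduct (58), 4531 for the difference of effects (2288) and 10554 for oviduct against uterus in E2 mice (6793). The weights ran from 0.30 for oil oviduct replicate 3 to 6.56 for E2 uterus replicate 2. The oviductal count was 10 with each tissue fitted alone and 121 without oil replicate 3, and ranged from 14 to 67 with each array left out. Members past the test for oviduct against uterus in oil mice numbered 3 to 5 with each array left out, and all genes past it 6760 to 7708. The cause of these moves was not tested.

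With the replicate number as a block, Bmpr2 in oviduct against uterus of oil mice lost its call (-0.17, adjusted p = 0.0511) and Inhba in E2 mice gained it (-0.33, adjusted p = 0.0113). With a random block by treatment and number, Bmp4 (0.39, adjusted p = 0.0499) and Inhba (adjusted p = 0.0391) gained calls in E2 mice. The labels do not say what equal numbers share. Same-numbered arrays of different groups correlated in their deviations at r -0.22 to 0.26, above 0.1 in 5 of 18 pairs, and 8 of 12 arrays correlated best with their own number. Between oviduct and uterus of the same treatment, same-numbered r was 0.26, 0.03 and 0.03 with E2 and 0.005, 0.05 and 0.26 with oil. Pairs of different number spanned a like range, from r -0.28 to 0.26. Deviations within a group sum to 0, so these pairs are tied to the same-numbered ones and cannot decide whether equal numbers share a mouse. Signal limits Bmp2, Inhba and Grem1 among the members, whose group means all lay below the Sry level. Inhba, Grem1, Bmp5, Gdf5, Lefty2, Acvr1c and Amhr2 fell out of the fit of genes above the median level, and each tissue fitted alone gives no comparison between tissues.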
